A study of Mus musculus with 8 samples.

Results

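The genes described here are those of bile acid synthesis, signalling and transport: the enzymes that turn cholesterol into bile acids and conjugate them, the carriers that take bile acids up into the liver cell and export them, and the receptors that set their level. They were chosen by name, as 33 mouse symbols, and 32 of them were rows of the deposited table of 14317 mouse genes; Slc51b, which encodes a subunit of the basolateral bile acid exporter, was not in the table. All 32 passed the filter of a mean normalised read count of at least 10. Liver RNA was sequenced from female mice in groups named Con-Veh (4 animals) and Con-DHT (4 animals), 1 library each. The mice are labelled WT. Per the methods they were the control animals (Con) of a floxed line, and they were 7 weeks old when a silastic pellet was implanted. The pellet held 10 mm of dihydrotestosterone (DHT), an androgen that aromatase does not convert to oestrogen, in Con-DHT, and was empty in Con-Veh. Both groups ate a western diet (WD) rich in palm oil, fructose and cholesterol for 8.5 weeks and were fasted overnight before the end. The comparison asks how androgen excess under WD altered these transcripts. The hour of death was not given in the sources used here, and several of these genes follow a daily rhythm.

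Bile acids are made in hepatocytes from cholesterol, either by a classic pathway that starts with 7α-hydroxylation of cholesterol or by an alternative pathway in which the side chain is oxidised first. They are conjugated, mostly to taurine in the mouse, pumped into bile across the canalicular membrane, and taken back up from portal blood by carriers on the sinusoidal membrane. The nuclear receptor FXR senses bile acids and, together with a gut hormone acting through FGFR4 and β-Klotho, lowers their synthesis.

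DHT changed a few carriers and enzymes of this system and left most of it without a detectable difference. Slco1a1, a sinusoidal organic anion carrier, rose 7.76-fold and Cyp7b1, the oxysterol 7α-hydroxylase of the alternative pathway, rose 6.93-fold in the ratio of group means, or 4.05-fold without Con-DHT replicate 4 and 4.98-fold in the limma fit on the log2 scale. Scp2, a sterol carrier and peroxisomal thiolase, rose 1.70-fold. Slco1a4, a related uptake carrier, fell from a mean of 2997 to 1654, and Hsd3b7 and Atp8b1 fell by less. With 1 library left out at a time, Hsd3b7 and Atp8b1 each passed the limma test given below in 2 of 8 fits. Cyp7b1 passed it in 3 of 8. Cyp7a1, the rate-limiting enzyme of the classic pathway, Slc10a1, the main sodium-dependent uptake carrier, and Nr1h4, which encodes FXR, had adjusted p values of 0.79, 0.82 and 0.93.

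Of the 32 genes tested, 6 (18.8%) passed the limma test at a Benjamini-Hochberg adjusted p of 0.05, against 7.21% of all 14312 genes tested. The 3 higher genes stand against 4.6% of all genes and the 3 lower genes against 2.61%. The median log2 fold change was -0.08 over the 32 genes and -0.01 over all genes, and the median size of the change was 0.26 and 0.17. The edgeR quasi-likelihood test called 6 genes of the 32, all 6 of them shared with limma, and 7.15% of all genes. DESeq2 called 11, which hold all 6 and add Akr1d1, Cyp2c70, Hsd17b4, Abcb11 and Fgfr4, and it called 11% of all genes. All Con-DHT livers lay beyond all Con-Veh livers for 9 of the 32 genes, against 15.1% of all genes, with 5 of them higher (8.49% of all genes) and 4 lower (6.62%). At an unadjusted p under 0.05 by limma there were 14, against 23.2% of all genes. The split of calls depended on the scaling: with library totals equalised after leaving out the Mup genes 5 members were higher and 1 lower, and scaled to the spike-ins 2 were higher and 0 lower.

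**Figure D1:**
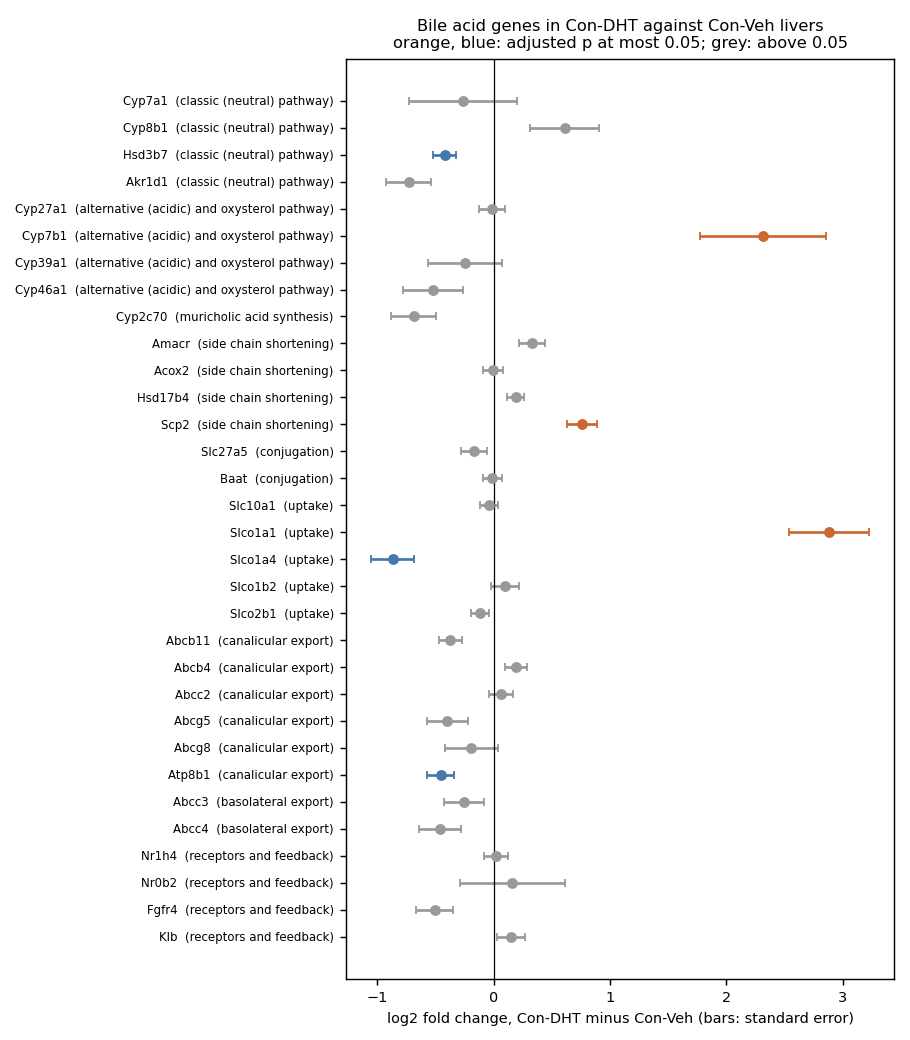
Log2 fold change (Con-DHT minus Con-Veh, horizontal axis) of the 32 bile acid genes in the order of their roles, with bars for the standard error, where orange marks higher and blue lower genes past the limma test and grey the other genes. Slco1a1 at 2.88 and Cyp7b1 at 2.32 stand farthest to the right, and Slco1a4 at -0.87 farthest to the left.

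The libraries held 13123962 to 17815944 reads on mouse genes; the median was 15439690 for Con-Veh livers and 14375913 for Con-DHT livers. Every member had at least 35 reads in every library and 30 of the 32 had at least 200. All 6 hepatocyte markers were in the table, with Alb at 539803 or above in every library, and 1 of them (Trf) was lower in Con-DHT. Of the cholangiocyte list, 7 of 8 markers were in the table and 0 differed, with summed normalised counts of 2367 to 2825 in Con-Veh and 2500 to 2886 in Con-DHT. Markers of Kupffer cells were lower for 4 of 7 (sums of 5552 to 6966 and 3755 to 5042) and those of sinusoidal endothelium for 2 of 6 (3259 to 3620 and 2399 to 2778). Of 6 stellate and 4 blood markers 0 differed, 1 of 3 B and plasma cell markers in the table was lower, Cd4 was higher as the only T cell marker in the table, and no neutrophil marker of 4 was in the table. Of the 8 pericentral and the 8 periportal hepatocyte markers 0 passed the limma test. These counts are limma's, and DESeq2 added Fgb (lower) and Apob (higher) among the hepatocyte markers, Oit3 (lower) of endothelium, the pericentral Lgr5 (lower, adjusted p = 0.026) and the periportal Cyp2f2 (higher, adjusted p = 0.011). In bulk liver, fewer cells of a type and less RNA per cell cannot be told apart, and the part of these cell types in the results was not tested.

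The 5 uptake carriers held 1 gene that rose, beside 4.6% of all genes, and 1 that fell, beside 2.61%. Slco1a1 (Oatp1a1), which carries bile acids, steroid conjugates and other organic anions into the hepatocyte, had normalised counts of 534, 363, 618 and 830.3 in Con-Veh and of 5988, 3309.6, 2263 and 6645 in Con-DHT. The lowest Con-DHT liver was above the highest Con-Veh liver. The means were 586 ± 194 and 4551 ± 2099.9 (SD, n = 4 each), and the log2 fold change was 2.88 with a standard error of 0.34 (limma, adjusted p = 0.0011). This was the one member whose call held under every alternative tried, with log2 fold changes between 2.66 and 3.18 when 1 library was left out.

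Slco1a4 (Oatp1a4), a carrier of similar substrates, moved the other way. Its counts were 3629, 2386, 2568 and 3405 in Con-Veh and 1433, 1649, 2244 and 1290.3 in Con-DHT, so that the groups did not overlap. It fell by 0.87 on the log2 scale (standard error 0.18, limma, adjusted p = 0.020), from 2997 ± 612 to 1654 ± 420.1 (SD, n = 4 each). The adjusted p was 0.057 without Con-DHT replicate 1, 0.061 without Con-Veh replicate 4, and 0.30 with libraries scaled to an equal spike-in total.

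Slco1a1 (6:141907282-141946962, minus strand, GRCm38) and Slco1a4 (6:141805440-141856199, minus strand) are neighbours on chromosome 6, in the gene cluster that also holds Slco1b2. Of the 100-base stretches in the exons of Slco1a1 and of Slco1a4, 0.614% and 0.64% also occur in another gene, so that uniquely mapped reads tell these relatives apart. The 250 bases before the RefSeq start of each gene are shown because these neighbours differed in direction. They are given 5′ to 3′ on the gene's own strand (GRCm38.p6), and capitals mark TTCNNNGAA, the letters that STAT5 is known to bind, which were searched on both strands.
Slco1a1, chr6:141946963-141947212, minus strand: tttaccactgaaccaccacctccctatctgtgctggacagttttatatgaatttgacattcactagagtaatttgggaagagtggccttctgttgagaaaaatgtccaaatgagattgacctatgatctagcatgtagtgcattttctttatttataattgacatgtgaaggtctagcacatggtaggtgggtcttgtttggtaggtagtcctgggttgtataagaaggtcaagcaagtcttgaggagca
Slco1a4, chr6:141856221-141856470, minus strand: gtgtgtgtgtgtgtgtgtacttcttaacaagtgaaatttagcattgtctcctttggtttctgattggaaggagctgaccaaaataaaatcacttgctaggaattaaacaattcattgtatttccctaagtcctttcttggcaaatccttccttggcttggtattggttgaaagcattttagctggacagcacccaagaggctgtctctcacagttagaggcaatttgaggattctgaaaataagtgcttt
Slco1b2, chr6:141629268-141629517, plus strand: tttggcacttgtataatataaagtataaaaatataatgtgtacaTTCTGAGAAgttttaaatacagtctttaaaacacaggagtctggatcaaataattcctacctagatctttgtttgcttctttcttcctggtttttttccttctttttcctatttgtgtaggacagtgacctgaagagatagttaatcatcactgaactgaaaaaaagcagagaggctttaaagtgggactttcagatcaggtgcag
The letters TTCNNNGAA were in this window of Slco1b2, which did not pass the test, and in neither of the windows of Slco1a1 and Slco1a4. The 24 symbols with an entry, of 33, had 30 windows, as some genes have several starts. The letters were in 6 of these 30 windows (of Hsd3b7, Nr0b2, Slc10a1, Slc51b, Slco1b2 and Slco2b1), beside 7.02% of all 32851 RefSeq promoter windows of this length. The letters TCAAGGTCA, a site of NR5A2 searched in the same way, were in 0.387% of all windows and in 0 of the members' windows.

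The other uptake carriers differed little. Slc10a1 (NTCP), the sodium-dependent carrier of conjugated bile acids, had 7741 to 8956 in Con-Veh and 7704 to 8523 in Con-DHT, with a log2 difference of -0.04 and a 95% interval from -0.21 to 0.14. Slco1b2 (Oatp1b2), which carries unconjugated bile acids, had means of 15166 ± 1728 and 16198 ± 1788, and its interval ran from -0.17 to 0.36. Slco2b1 had means of 3056 ± 115 and 2823 ± 221, with an adjusted p of 0.38 by limma. Per kb of exon, the 4 Slco carriers summed to 4168 ± 288 in Con-Veh and 4881 ± 169 in Con-DHT, a description chosen after the values were seen. Within that sum the share of Slco1a1 was 2.66% ± 0.823 and 17.7% ± 8.30, that of Slco1a4 was 11.3% ± 2.96 and 5.30% ± 1.44, and Slco1b2 held 73.7% ± 4.08 and 67.3% ± 6.65.

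**Figure D2:**
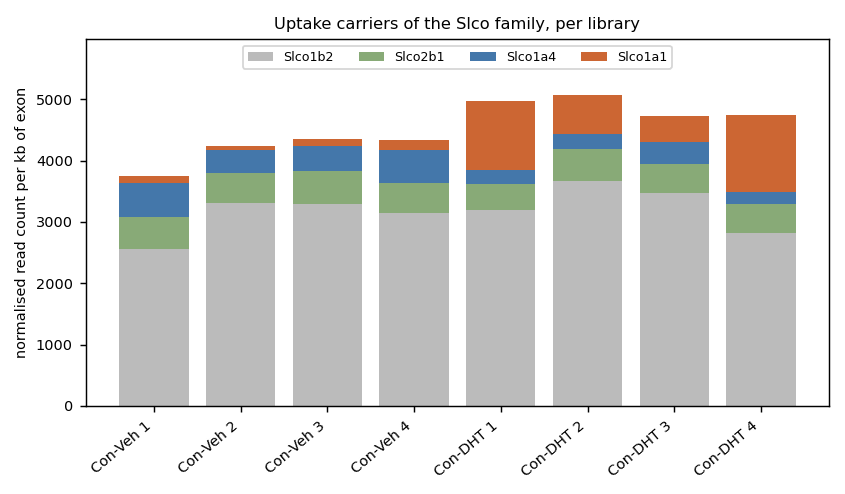
Normalised read count per kb of exon (vertical axis, from 0) of the 4 Slco uptake carriers, stacked for each of the 8 libraries. Slco1b2 is the largest block in all libraries, while the ratio of Slco1a1 to Slco1a4 per kb lies between 0.179 and 0.296 in Con-Veh and between 1.23 and 6.26 in Con-DHT.

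Of the 4 genes listed under the classic pathway, 1 fell, beside 2.61% of all genes, and 0 rose, beside 4.6%. The gene that fell, Hsd3b7, acts in both pathways. Cyp7a1, the cholesterol 7α-hydroxylase, had counts of 2273, 4956, 4549 and 7599 in Con-Veh and 1390.2, 5577, 5589.8 and 4384 in Con-DHT. The groups overlapped over most of their range, and the 95% interval of the log2 difference, from -1.29 to 0.77, leaves room for a change of more than 2-fold downwards. Cyp8b1, the sterol 12α-hydroxylase that directs synthesis to cholic acid, had 6449.6, 4194, 4139 and 8756 in Con-Veh and 6707, 7445, 7199 and 14769.6 in Con-DHT. Its highest value was in Con-DHT replicate 4, and the difference of 0.61 (standard error 0.29) had an adjusted p of 0.24 by limma.

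Hsd3b7, the 3β-hydroxysteroid dehydrogenase that acts after 7α-hydroxylation in both pathways, had counts of 557, 507, 466 and 599 in Con-Veh and 419, 367, 429.7 and 372 in Con-DHT. The groups did not overlap, and it fell by 0.42 on the log2 scale (standard error 0.10, limma, adjusted p = 0.030), from 532 ± 57.9 to 397 ± 32.1. The call was lost when any 1 library other than Con-Veh replicate 3 or Con-DHT replicate 3 was left out (adjusted p between 0.052 and 0.082), and its adjusted p was 0.93 under scaling to the spike-ins, 0.063 with totals equalised after leaving out the Mup genes and 0.059 without limma's intensity trend. Of its exonic 100-base stretches 72.0% also occur in the overlapping gene model Gm49388, so that its level is uncertain. Its upstream window is shown for the position of its TTCNNNGAA, which starts at -21 from the RefSeq start (capitals, GRCm38.p6).
Hsd3b7, chr7:127800359-127800608, plus strand: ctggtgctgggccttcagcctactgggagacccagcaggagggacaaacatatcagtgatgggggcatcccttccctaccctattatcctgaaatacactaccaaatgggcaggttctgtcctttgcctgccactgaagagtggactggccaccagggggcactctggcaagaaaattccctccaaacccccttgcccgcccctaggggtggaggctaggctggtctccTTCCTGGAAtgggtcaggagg
Akr1d1, the 5β-reductase that bends the A ring of bile acid precursors and also inactivates steroid hormones, had 1851, 2334, 2395 and 2693 in Con-Veh and 1039, 1959, 1604 and 1127 in Con-DHT. The groups overlapped in Con-DHT replicate 2, and the adjusted p for the difference of -0.73 (standard error 0.19) was 0.0501 by limma and 0.0089 by DESeq2.

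The alternative pathway and the other oxysterol hydroxylases held 1 gene of 4 that rose, beside 4.6% of all genes. Cyp7b1, which 7α-hydroxylates 27-hydroxycholesterol and also metabolises androgen and oestrogen precursors, had counts of 280.3, 255, 303 and 329 in Con-Veh and 2125, 924, 497 and 4544 in Con-DHT. All 4 Con-DHT livers were above all Con-Veh livers, while the highest of them had 4544 and the lowest 497. The means were 292 ± 31.7 and 2023 ± 1817 (SD, n = 4 each), with a log2 fold change of 2.32 and a standard error of 0.54 (limma, adjusted p = 0.030). The call was lost without Con-DHT replicate 1 (adjusted p = 0.080), without any 1 Con-Veh library (0.060 to 0.075) and without limma's intensity trend (0.067).

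Cyp27a1, the mitochondrial 27-hydroxylase that starts this pathway, had 6789, 7403, 6423 and 6696 in Con-Veh and 5843, 7016, 6210.4 and 8164 in Con-DHT, and the interval of its log2 difference ran from -0.25 to 0.23. The ratio of Cyp7b1 to Cyp27a1 per kb of exon was 0.0345 to 0.0493 in Con-Veh and 0.0803 to 0.558 in Con-DHT, whereas that of Cyp7b1 to Cyp7a1 overlapped, at 0.0834 to 0.238 and 0.171 to 2.95. These ratios are descriptions chosen after the values were seen. Cyp39a1, a 24-hydroxycholesterol 7α-hydroxylase, had means of 609 ± 113 and 554 ± 241, and Cyp46a1, the cholesterol 24-hydroxylase known from brain, had 108 ± 22.5 and 77.9 ± 28.7. Their adjusted p values by limma were 0.70 and 0.27. Cyp2c70, which makes the muricholic acids that set mouse bile apart from human bile, had 3622, 5108, 3990.1 and 2455 in Con-Veh and 2032, 2044, 2443 and 2681 in Con-DHT. The lowest Con-Veh value lay within the Con-DHT range, and the difference of -0.68 (standard error 0.19) had an adjusted p of 0.061 by limma, 0.052 by edgeR and 0.0048 by DESeq2.

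**Figure D3:**
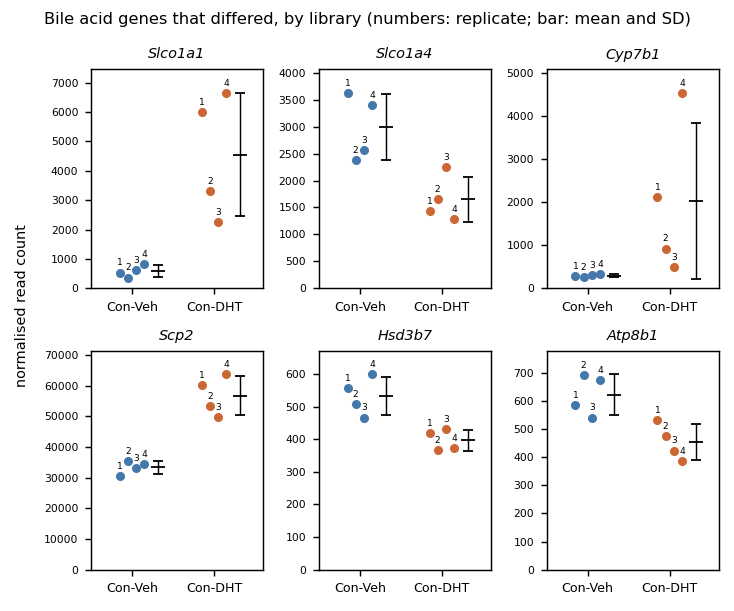
Normalised read count (vertical axis, from 0) of the 6 genes with an adjusted p of at most 0.05, in each Con-Veh (blue) and Con-DHT (orange) library, numbered by replicate, with the mean and SD in black. The groups do not overlap in any panel, and Cyp7b1 runs from 497 to 4544 within Con-DHT.

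Peroxisomal shortening of the side chain held the most abundant member. In 3 of its 4 genes the groups did not overlap, beside 15.1% of all genes. Of the 4 genes 1 passed the limma test, beside 7.21% of all genes. The step was singled out after the values were seen. Scp2 had the highest count per kb of the 32 genes in Con-Veh. Its counts were 30436, 35517, 33202 and 34368 in Con-Veh and 60235, 53257, 49690.1 and 63695 in Con-DHT, without overlap. It rose from 33381 ± 2179 to 56719 ± 6388 (log2 fold change 0.76, standard error 0.13, limma, adjusted p = 0.0063), and the call held without any 1 library but not under scaling to the spike-ins (adjusted p = 0.073). Of its exonic 100-base stretches 21.8% also occur in another gene, mainly the pseudogene Scp2-ps2.

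Amacr, the racemase that readies the side chain for oxidation, had 1700.1 to 2029 in Con-Veh and 2041 to 2855 in Con-DHT, with an adjusted p of 0.10. Hsd17b4, the multifunctional enzyme of the next steps, had 8485 to 9251 and 9804 to 10481, a difference of 0.19 with an adjusted p of 0.15 by limma and 0.023 by DESeq2. Acox2, the branched-chain acyl-CoA oxidase between these steps, had 2444 to 3049 and 2624 to 2853, with an interval from -0.20 to 0.18. The 3 separated genes of this step were higher in Con-DHT, and of them Scp2 passed the limma test. Neither conjugation gene passed it: Slc27a5, the bile acid CoA ligase, had means of 16594 ± 393 and 14840.4 ± 2086, and Baat, which transfers taurine or glycine, had 2839 ± 266 and 2811 ± 161 with an interval from -0.19 to 0.17.

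Among the 6 genes of canalicular export, 1 fell, beside 2.61% of all genes. Atp8b1, a flippase that keeps the canalicular membrane in order, had counts of 584, 693, 541 and 673 in Con-Veh and 533, 476, 424 and 387 in Con-DHT, without overlap. It fell by 0.46 on the log2 scale (standard error 0.12, limma, adjusted p = 0.044), from 623 ± 72.2 to 455 ± 63.5. The call was lost without any 1 library other than Con-Veh replicate 3 or Con-DHT replicate 1 (0.065 to 0.12), under scaling to the spike-ins (0.92) or with totals equalised after leaving out the Mup genes (0.087), without the trend (0.086), and among genes with a mean of at least 50 (0.053).

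Abcb11 (BSEP), the pump that moves bile salts into bile, had 7664, 8738, 7153 and 7900.0 in Con-Veh and 6430.0, 5938, 6756 and 5224 in Con-DHT. Every Con-DHT liver was below every Con-Veh liver, and the difference of -0.37 (standard error 0.10) lay at the threshold, with an adjusted p of 0.051 by limma, 0.061 by edgeR and 0.0083 by DESeq2. Abcb4 (MDR2), which flips phosphatidylcholine into bile, had 7037 to 8276 and 7895 to 9834, and Abcc2 (MRP2), which exports conjugated bilirubin and glutathione conjugates, had 9209.9 to 10528 and 8809 to 11544. Abcg5 and Abcg8, which together form the sterol exporter and lie on opposite strands in partly overlapping gene models, had means of 3781 ± 399 and 2941 ± 768, and of 3129 ± 482 and 2845 ± 914. Both were lowest in Con-DHT replicate 4, at 1936 and 1644, and both groups overlapped. Of the basolateral exporters, Abcc3 (MRP3) had means of 6321 ± 902 and 5361 ± 1186 and Abcc4 (MRP4) was the least expressed member, with 51.7 to 66.9 in Con-Veh and 34.3 to 54.2 in Con-DHT. Their adjusted p values by limma were 0.41 and 0.16.

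None of the 4 receptor and feedback genes passed the limma test. Nr1h4 (FXR) had 1626, 1827, 2203 and 2198 in Con-Veh and 2029.8, 1856, 1996 and 2028 in Con-DHT, and its interval ran from -0.21 to 0.25. Nr0b2 (SHP), the repressor that FXR induces, had 228, 740.2, 535 and 534 in Con-Veh and 786, 887, 488 and 222 in Con-DHT. It varied more than 3-fold within each group, so that its interval, from -0.84 to 1.16, is wide. Fgfr4, the hepatic receptor for the gut hormone, had 1296, 1121, 1213 and 1030.5 in Con-Veh and 930.1, 635, 1071 and 703 in Con-DHT. The groups overlapped in Con-DHT replicate 3, and the difference of -0.51 (standard error 0.16) had an adjusted p of 0.080 by limma and 0.042 by DESeq2. Klb (β-Klotho), its co-receptor, had 508 to 575 and 495 to 721, with an interval from -0.12 to 0.42.

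**Figure D4:**
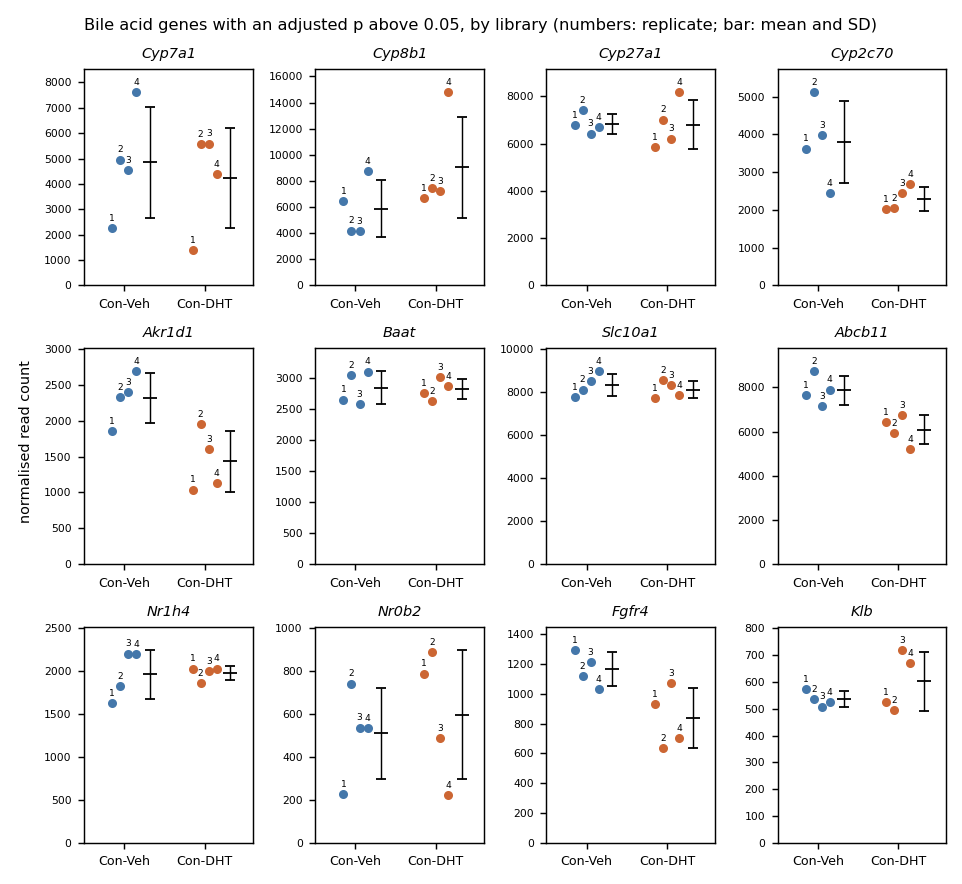
Normalised read count (vertical axis, from 0) of 12 bile acid genes with an adjusted p above 0.05, in each Con-Veh (blue) and Con-DHT (orange) library, numbered by replicate, with the mean and SD in black. Abcb11 does not overlap between the groups, Cyp7a1 runs from 1390.2 to 5589.8 within Con-DHT, and Slc10a1 and Baat have nearly equal means.

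Among the genes with the highest levels, listed next, only Scp2 passed the test, beside 6 of all 32 members (18.8%). On counts per kb of exon in Con-Veh, Scp2 came first with 9598 ± 626, followed by Slc27a5 with 6806 ± 161, Slc10a1 with 3782 ± 237, Cyp27a1 with 3142 ± 190.5, Slco1b2 with 3077 ± 351 and Cyp8b1 with 3018 ± 1126. The last 3 of these overlap within their SDs. Of the genes that changed most, Cyp7b1 was at rank 27 with 135 ± 14.6 and Slco1a1 at rank 29 with 111 ± 36.8 in Con-Veh, and their Con-DHT levels per kb were 934 ± 839 and 863 ± 398. For 12 of the 26 genes that did not pass the test, the 95% interval of the log2 difference lay within 0.5 on either side of 0: Cyp27a1, Acox2, Hsd17b4, Slc27a5, Baat, Slc10a1, Slco1b2, Slco2b1, Abcb4, Abcc2, Nr1h4 and Klb. The intervals of the others do not bound the change that closely.

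Further genes of the pathway were taken from lists of 71 symbols, of which 63 were in the table, and 14 of these (5 higher, 9 lower) passed the limma test, beside 7.21% of all genes. Detoxification held 5 of its 7 genes. Cyp3a11, which hydroxylates bile acids and drugs, fell from 26664 ± 6849.7 to 13365 ± 3748 (log2 fold change -1.01, standard error 0.23, limma, adjusted p = 0.028). Cyp2a22, a relative of the bile acid 7α-hydroxylase Cyp2a12, fell from 3592 ± 1337 to 719 ± 642 (adjusted p = 0.034 by limma and 0.065 by edgeR). Ugt1a1, which glucuronidates bilirubin, fell from 3606 ± 83.7 to 2031 ± 216 (adjusted p = 0.00044), with 77.4% of its 100-base stretches shared with the other genes of the Ugt1a locus. The sulfotransferases went apart: Sult2a8, which sulfates bile acids in mouse liver, rose from 3689 ± 1110.2 to 11413 ± 1021 (log2 fold change 1.68, standard error 0.21, adjusted p = 0.0013), without overlap. Sult2a1 had 1115, 131, 82.9 and 27 in Con-Veh and 41.2, 1.94, 0 and 0 in Con-DHT, where the groups overlapped and the adjusted p was 0.036 by limma, 0.060 by edgeR and 0.081 by DESeq2.

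Of 18 further transport and membrane genes, 2 rose and 1 fell. For this and the other lists below, 4.6% of all genes were called higher and 2.61% lower. Abcg2, a canalicular exporter of sulfated steroids and other conjugates, had 346, 368, 381 and 379 in Con-Veh and 838, 727, 576 and 822 in Con-DHT, without overlap and with a change of 0.99 on the log2 scale (standard error 0.12, limma, adjusted p = 0.0010). Abcc1 rose from 35.5 ± 10.1 to 63 ± 6.82 (adjusted p = 0.036), and Slco2a1, a prostaglandin carrier also made by endothelium, whose markers are given above, fell from 1418 ± 226 to 1034 ± 101 (adjusted p = 0.046 by limma and 0.0504 by edgeR). Of 13 further synthesis genes, Stard4, a cholesterol carrier, rose from 370.4 ± 139 to 674 ± 107 (adjusted p = 0.028) and Abcd3, which brings bile acid precursors into peroxisomes, rose from 6797 ± 526 to 9164 ± 769 (adjusted p = 0.020). Of 4 taurine genes, Cdo1, the cysteine dioxygenase that starts taurine synthesis, fell from 28770.3 ± 1454 to 21948 ± 1831 (adjusted p = 0.047). Of 21 further regulators, 3 fell. Among them were the transcription factors Nfil3, from 608 ± 85.6 to 371 ± 34.7 (limma, adjusted p = 0.0054), and Foxa2, from 669 ± 90.5 to 462 ± 78.4 (adjusted p = 0.033). Under scaling to the spike-ins 7 genes of these lists passed, and with 1 library left out 6 to 10 did. Of the genes named from these lists, Abcg2, Sult2a8, Cyp2a22, Stard4 and Sult2a1 kept their calls under spike-in scaling. The calls of Ugt1a1 (limma, adjusted p = 0.36), Nfil3 (0.64), Cyp3a11 (0.17), Abcd3 (0.41), Foxa2 (0.88) and Cdo1 (0.93) were lost. So were those of Abcc1 (0.083) and Slco2a1 (0.92). Over the 8 fits with 1 library left out, Abcg2, Nfil3, Sult2a8 and Ugt1a1 passed in all 8. Abcd3 passed in 6, Cyp3a11 in 4, Cyp2a22 in 3, and Stard4 and Sult2a1 in 2. Foxa2, Abcc1 and Slco2a1 passed in 1 and Cdo1 in 0.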

How the data were processed

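Liver RNA of 4 Con-Veh and 4 Con-DHT mice was sequenced, 1 library each, and groups came from the labels. Per the methods and the submitters' processing notes, the authors trimmed reads (Trimmomatic), aligned them (STAR, GRCm39), counted uniquely mapped exonic reads (featureCounts) and used DESeq2, with ERCC spike-ins added. The deposited values are a normalized signal, read counts divided by 1 size factor per library. Dividing by the smallest step gave whole reads for 100% of the values (within 0.001), and 3 reads equal values of 2.61 to 3.30. The table holds no feature under 81 reads in all. The kit is not stated to mark strand, so overlapping genes on opposite strands cannot be told apart.

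Mouse genes averaging 10 or more (14312) were tested on log2(value + 1) with limma 3.58.1 (eBayes with an intensity trend, R 4.3.3) and Benjamini-Hochberg adjustment at 0.05; the pseudocount understates changes of low genes. Calls were repeated on the recovered reads with edgeR 4.0.16 and DESeq2 1.42.0, and with other scalings, pseudocounts, filters, a replicate block and each library left out. The tests were tried on simulated counts, whose planted changes were larger than those of Scp2, Slco1a4, Hsd3b7 and Atp8b1. That trial does not cover changes of their size. Spreads are SDs over mice, and p-values measure only the spread between these mice. The 12 within-group pairs of libraries differed beyond sampling noise (chi-square per degree of freedom of 19.5 to 62.9).

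The genes and lists were chosen with earlier results of these data known. All 32 members are named, and of the further lists those past the threshold, except that a few items are not reported here. Symbols, exon lengths, coordinates (GENCODE M21, GRCm38) and upstream windows (RefSeq, GRCm38.p6) come from another build than the alignment and were matched by gene identifier and symbol.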

Additional observations from a re-analysis of the deposited data

Results flagged for a closer look

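In 3 of the 64 groups of 4 libraries examined over the 32 genes, 1 library stood apart from the others by Dixon's criterion, where chance alone gives about 1 group in 20. Cyp8b1 was at 14769.6 in Con-DHT replicate 4, above the other Con-DHT livers at 6707 to 7445. Abcc3 was at 3619.8 in the same library, below 5598 to 6125 in the others. Abcc2 was at 9209.9 in Con-Veh replicate 1, below 10298 to 10528. None of the 3 genes passed the limma test with all libraries included.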

How the results depend on the processing

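Of the gene-level alternatives, 782 kept their direction and side of the threshold, 130 were weaker, 19 stronger and 34 reversed, all of the last for genes that were not called. The 6 called members became 2 under spike-in scaling, 3 without the intensity trend and 11 with DESeq2. The 3 higher members became 5, and the 3 lower members 1, with totals equalised after leaving out the Mup genes. The lower members numbered 5 with an equal upper quartile or array weights, 0 under spike-in scaling, 1 without the trend and 7 with DESeq2. The number of further pathway genes called went from 14 to 7 under spike-in scaling and to 7 without the trend. Those under spike-in scaling include genes outside the 14. Calls over all genes went from 1032 to 636 under spike-in scaling, 648 for genes averaging 50 or more and 1569 with DESeq2. Leaving out 1 library gave 638 to 897 calls over all genes, 3 to 7 members, 2 to 3 higher and 1 to 4 lower members and 6 to 10 further pathway genes. Members numbered 3 without Con-DHT replicate 1, Con-Veh replicate 2 or Con-Veh replicate 4. Spike-in scaling moved the median of all genes from -0.01 to 0.19 (log2) and the share of higher calls from 63.8% to 88.2%. Scaling without the Mup genes moved the share to 83.9%. The spike-ins took 1.68% to 3.61% of the reads in Con-Veh libraries and 2.22% to 2.75% in Con-DHT libraries. Under spike-in scaling the standard error was 0.30 for both Hsd3b7 and Cyp7b1, against 0.10 and 0.54 in the main fit. Relative to the spike-in median, Slco1a1 was at 2.90, Cyp7b1 at 2.33, Scp2 at 0.77, Slco1a4 at -0.86, Hsd3b7 at -0.41 and Atp8b1 at -0.44. The cause was not tested.

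Directions turned as follows (log2). Under spike-in scaling Cyp27a1 was at 0.18, Acox2 at 0.19, Slc27a5 at 0.027, Baat at 0.19, Slc10a1 at 0.16, Slco2b1 at 0.082 and Abcg8 at 0.0091. Without the Mup genes Cyp27a1 was at 0.084, Acox2 at 0.090, Baat at 0.087 and Slc10a1 at 0.061. Under quantile normalization Cyp27a1 was at 0.0012, Acox2 at 0.052, Baat at 0.056 and Slc10a1 at 0.0040. With edgeR Cyp27a1 was at 1.7e-05, and with array weights Nr1h4 was at -0.0054. With 1 library left out, Cyp7a1 ranged from -0.58 to 0.21, Cyp27a1 from -0.11 to 0.055, Cyp39a1 from -0.48 to 0.12, Acox2 from -0.067 to 0.040, Baat from -0.056 to 0.032, Abcg8 from -0.33 to 0.052, Nr1h4 from -0.065 to 0.081 and Nr0b2 from -0.18 to 0.57.

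The labels give each library a replicate number and name no pairs of mice. Same-numbered libraries of the groups had correlations of their deviations between -0.19 and -0.006. Such correlations cannot decide whether same-numbered mice shared a cage or a day. Blocking on that number, 700 genes, 5 members (3 higher, 2 lower) and 9 further pathway genes were called; Slco1a4 (adjusted p = 0.058), Hsd3b7 (0.069) and Atp8b1 (0.072) were then not called, and Akr1d1 (0.041) and Fgfr4 (0.043) were. The fewest reads of any member were 35, in Abcc4, and the effect of depth on the calls was not tested.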

Other observations

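The order of the Con-DHT livers in 4 of the genes that changed is a description chosen after the values were seen. Slco1a1, Cyp7b1 and Scp2 were highest in replicate 4, then in replicates 1, 2 and 3, and Slco1a4 had the reverse order. Abcb4, which was not called, had the same order as Slco1a1. This order or its reverse was found in 5 of the 32 members (15.6%). It was also found in 12.9% of all genes called by limma and in 10.7% of all genes tested. Con-DHT replicate 4 was the highest or the lowest Con-DHT liver for 19 of the 32 genes (59.4%), and for 55.2% of all genes.

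Per kb of exon, Cyp7b1 made up 9.84% ± 3.43 of the sum of the 7α-hydroxylases Cyp7a1, Cyp7b1 and Cyp39a1 in Con-Veh and 41.9% ± 29.05 in Con-DHT, and Cyp7a1 made up 75.4% ± 9.74 and 49.1% ± 24.98 (SD, n = 4 each). The summed level was 1495 ± 536 and 2130 ± 837, and the groups overlapped.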
